A study of Mus musculus with 6 samples.

Results

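Metallothioneins and the target genes of the transcription factor Nrf2 were followed in mouse skin as 10 genes: the metallothioneins Mt1 and Mt2, the Nrf2 gene Nfe2l2 itself, and Hmox1, Nqo1, Srxn1, Gclm, Gclc, Txnrd1 and Slc7a11. They were taken by symbol from 54146 Ensembl gene IDs, and all 10 belonged to the 28389 genes whose mean reached 0.1 FPKM and that were tested. The tissue was skin of mice kept under chronic restraint stress (CRS, 3 libraries) and of control mice (CON, 3 libraries), sampled after 12 weeks. FPKM are fragments scaled by exon length and library size, so levels of different genes can be set side by side, but only roughly. The libraries differed in their dependence on exon length, and merged exons can be longer than single transcripts. Strain, sex, age, genotype, body site and the control animals' handling are not given in the sources used. The design text gives 3 mice per group, and p-values measure the spread between these libraries.

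Metallothioneins are small cysteine-rich proteins that bind zinc and copper, and their genes are switched on by metals through the factor Mtf1 and by glucocorticoids, the hormones released under stress. Nrf2 is held in the cytoplasm and marked for degradation by Keap1. When oxidants or electrophiles disable Keap1, Nrf2 enters the nucleus and, with a small Maf protein, binds antioxidant response elements near genes for glutathione synthesis, thioredoxin recycling, quinone reduction and haem breakdown. In skin this programme serves the defence of keratinocytes against ultraviolet light, oxygen and chemicals.

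In this skin Mt1 and Mt2 averaged lower in CRS than in CON, the haem oxygenase gene Hmox1 and the sulfiredoxin gene Srxn1 averaged higher, and the glutathione synthesis genes and Nfe2l2 averaged lower by less. None of these differences passed the test across all genes (limma on log2(FPKM + 0.1), two-sided, Benjamini-Hochberg adjusted p of 0.9999 for each of the 10). No gene of the 28389 tested passed it in either direction, a background of 0%, and the unadjusted p fell under 0.05 for 261 genes higher in CRS (0.919%) and 462 lower (1.63%), with 0 of the 10 members among them. In 7 of the 10 the log2 fold change was below 0, against 67.8% of all genes tested, whose median was -0.20. Relative to that median, Hmox1 stood at 0.88, Srxn1 at 0.84, Txnrd1 at 0.42 and Nqo1 at 0.10, while Mt2 stood at -1.07 and Mt1 at -0.67.

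**Figure D1:**
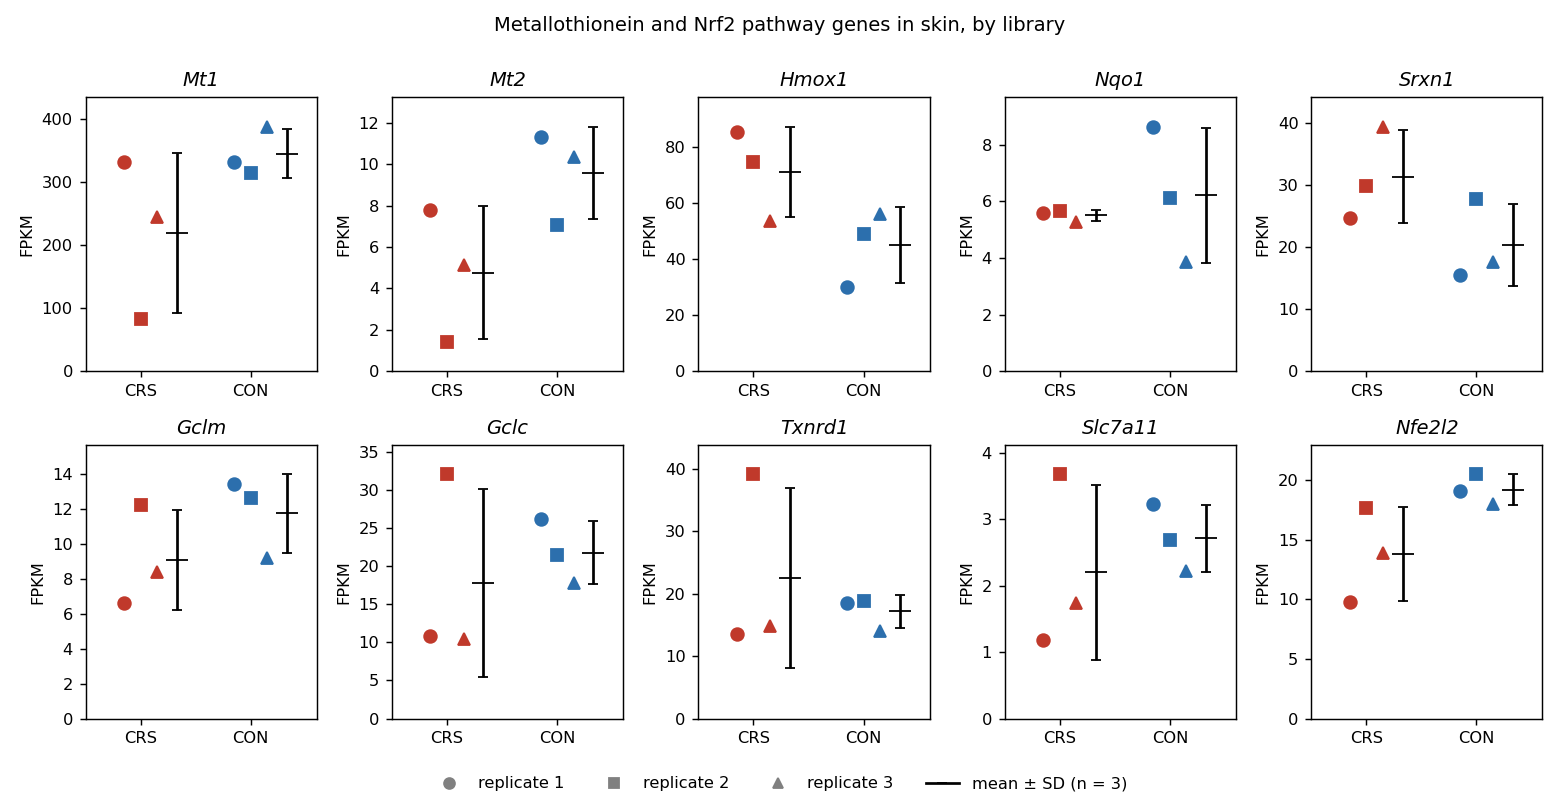
FPKM of each of the 10 genes in the 3 CRS libraries (red, left) and the 3 CON libraries (blue, right), with symbols for replicate numbers and bars for the mean ± SD (n = 3). CRS replicate 2 is the lowest library for Mt1 and Mt2 and the highest for Gclc, Txnrd1 and Slc7a11.

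Several of the 6 libraries stood apart before any group comparison. CRS replicates 1 and 2 had opposite dependences on gene length. Among genes of at least 1 FPKM, the median log2 deviation of CRS replicate 2 from the mean of the 6 libraries was -1.26 for exon lengths up to 750 nt and 0.72 for lengths above 6000 nt, and that of CRS replicate 1 was 0.85 and -0.43. CRS replicate 3 also ran low for long genes, with 0.15 and -0.61. Values given below without CRS replicate 2 thus rest on CRS libraries that both run low for long genes and high for genes up to 750 nt. CON replicate 1 differed in tissue makeup. Its 7 skeletal muscle markers summed to 11420 FPKM, against 408 to 2284 in the CRS libraries and 1328 and 2311 in the other CON libraries. Its 6 dermal fibroblast markers summed to 234 FPKM, against 803 to 1277 elsewhere, and 15.3% of its fragments came from the mitochondrial genome, against 2.50% to 4.19%. It also held 2.80 FPKM of the X-inactivation transcript Xist beside 22.5 FPKM of the Y-linked Ddx3y, while Xist was at 0.168 FPKM or less in the other libraries, so that whether it came from 1 animal is not settled by the files. Skin identity held throughout: all 7 epidermal keratinocyte markers were detected in every library, with sums of 2672, 3050 and 2381 FPKM in CRS and 2108, 2278 and 1988 FPKM in CON, higher in every CRS library. Depth was 19.2 to 25.7 M fragments per library in CRS and 13.3 to 19.9 M in CON. In bulk skin, fewer cells of a type and less RNA per cell cannot be told apart.

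Nfe2l2, which encodes Nrf2, had 9.81, 17.7 and 13.9 FPKM in CRS replicates 1 to 3, against 19.1, 20.5 and 18.0 FPKM in CON replicates 1 to 3. Every CRS value lay below every CON value, although the highest CRS library and the lowest CON library were nearly level. Such separation towards lower values in CRS was found in 5.19% of all genes tested, and Nfe2l2 was the only member to show it; no member was separated towards higher values, against 1.65% of all genes. Its log2 fold change was -0.51 ± 0.31 (± SE, as for every log2 fold change given here; limma unadjusted p = 0.137; exact two-sided permutation p = 0.1, the smallest that 3 against 3 allows). The mean was 13.8 ± 3.95 FPKM in CRS and 19.2 ± 1.27 FPKM in CON (SD, n = 3 each). With the dependence on exon length of each library subtracted, the log2 fold change was -0.28 ± 0.20 and the groups overlapped. It was -0.71 without CRS replicate 2 and -0.29 without CRS replicate 1. The first of these includes the low values of CRS replicates 1 and 3 for genes of 3000 to 6000 nt (median log2 deviations -0.37 and -0.39).

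The stretch of 250 bases before the RefSeq start of Nfe2l2 is shown because it holds a match to the element that the gene's own protein binds. It lies at chr2:75704664-75704913 of GRCm38.p6 on the minus strand, and the capitals mark a match to TGACNNNGC, the core letters of the antioxidant response element.
Nfe2l2: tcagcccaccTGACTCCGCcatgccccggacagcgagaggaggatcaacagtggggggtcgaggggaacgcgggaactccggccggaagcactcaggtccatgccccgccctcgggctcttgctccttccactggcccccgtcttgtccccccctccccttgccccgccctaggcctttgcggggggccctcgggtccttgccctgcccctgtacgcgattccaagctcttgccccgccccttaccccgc
The match reads TGACTCCGC on the strand of the gene.

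The partners and regulators of Nrf2 were 11 genes, among them Keap1, the repressor Bach1 and the small Mafs. None was called; 3 had a log2 fold change above 0 and 8 below, with a median of -0.06 beside -0.20 for all genes. That position depended on the CRS libraries: the median was -0.47 beside -0.21 for all genes without CRS replicate 2, and 0.11 beside -0.25 without CRS replicate 1. Maff, a small Maf partner, had 7.40, 9.08 and 8.40 FPKM in CRS against 3.61, 6.96 and 5.45 FPKM in CON. All CRS values were above all CON values, with a log2 fold change of 0.67 ± 0.34 (limma unadjusted p = 0.0828). Mafg, another small Maf, stood at -0.62 ± 0.50. Keap1 had 5.78, 8.32 and 4.88 FPKM in CRS against 8.55, 6.22 and 8.55 FPKM in CON, with overlapping groups; it and Bach1 were named after their values were seen. Bach1 ranged from 3.25 to 12.5 FPKM in CRS and from 4.60 to 6.13 FPKM in CON, with CRS replicate 2 highest.

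Mt1 was the most abundant of the 10 genes in each group. It had 332, 81.9 and 244 FPKM in the CRS libraries, against 332, 314 and 388 FPKM in the CON libraries. CRS replicate 2 was far below the other 5, CRS replicate 1 was level with the controls, and the groups overlapped. The means were 219 ± 127 FPKM in CRS and 345 ± 38.6 FPKM in CON (SD, n = 3 each), a log2 fold change of -0.87 ± 0.55 (95% interval -2.13 to 0.40; limma unadjusted p = 0.153; exact permutation p = 0.2).

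Mt2, the sister gene on the same chromosome, was measured at far lower levels. It had 7.78, 1.39 and 5.13 FPKM in CRS against 11.3, 7.08 and 10.4 FPKM in CON. The order of libraries within CRS was that of Mt1, with replicate 2 lowest, and CRS replicate 1 lay above the lowest control. Its log2 fold change was -1.27 ± 0.59 (95% interval -2.62 to 0.08; limma unadjusted p = 0.0615; exact permutation p = 0.2), the value furthest from 0 among the 10. Mt2 rested on few fragments: 88, 21 and 76 in CRS and 126, 83 and 81 in CON, and the 21 fragments of CRS replicate 2 carry a Poisson 95% interval of 0.859 to 2.12 FPKM, for counting error only.

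Both values depended on CRS replicate 2. Without it the log2 fold change was -0.27 for Mt1 and -0.57 for Mt2, without CRS replicate 1 it was -1.28 and -1.77, and without CON replicate 1 it was -0.89 and -1.14. For genes up to 750 nt, median log2 deviations were 0.85 and 0.15 in CRS replicates 1 and 3, and 0.08, 0.08 and 0.40 in CON. From 750 to 1500 nt they were 0.23 and 0.20, and -0.01, 0.21 and 0.09 in CON. The values without CRS replicate 2 include these shifts. Mt1 has 1246 nt of merged exons and Mt2 588 nt, the shortest of the 10. In CRS replicate 2 both lay below the median of their length class by merged exons. Genes up to 750 nt deviated by -1.26 and genes of 750 to 1500 nt by -0.57 (median log2), against -2.04 for Mt2 and -1.63 for Mt1. The class of Mt1 is uncertain, since its annotated transcripts of 549 and 633 nt would fall in the class with -1.26.

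As a share of Mt1, Mt2 was at 2.34%, 1.70% and 2.10% in CRS and at 3.41%, 2.26% and 2.67% in CON, in FPKM. The 3 CON libraries spanned a range that reached into that of CRS, so the groups overlapped; replicate 1 of CRS lay above replicate 2 of CON. The Mt2 to Mt1 ratio differed by -0.43 on the log2 scale and by -0.15 once CRS replicate 2 and CON replicate 1 were left out. Of all 50-base stretches of the annotated transcripts, 0% of those of Mt1 and 0% of those of Mt2 occurred in transcripts of another gene. Fragments of that length from Mt1 and Mt2 can thus be told apart by sequence. Mt2 overlaps Gm45774 on the opposite strand, which averaged 0.147 FPKM. Strandedness and the read counter are not given, so how fragments in that overlap were counted is not known. Merged exon lengths were larger than single transcripts: the annotated transcripts had 549, 633 and 1085 nt for Mt1 and 388 and 511 nt for Mt2.

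The upstream sequences of the pair are shown because both genes are known metal-responsive genes with the same inducer. The windows are 250 bases ending at the base before the RefSeq start, on the plus strand of GRCm38.p6, at chr8:94172368-94172617 for Mt2 and chr8:94178839-94179088 for Mt1. Capitals mark matches, on either strand, to the metal response element core (TGCACNC or TGCGCNC) and to TGACNNNGC.
Mt2: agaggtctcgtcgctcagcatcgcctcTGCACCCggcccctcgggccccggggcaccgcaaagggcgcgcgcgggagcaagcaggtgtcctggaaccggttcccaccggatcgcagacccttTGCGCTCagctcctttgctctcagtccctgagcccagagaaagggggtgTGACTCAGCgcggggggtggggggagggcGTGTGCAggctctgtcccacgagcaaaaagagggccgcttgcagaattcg
Mt1: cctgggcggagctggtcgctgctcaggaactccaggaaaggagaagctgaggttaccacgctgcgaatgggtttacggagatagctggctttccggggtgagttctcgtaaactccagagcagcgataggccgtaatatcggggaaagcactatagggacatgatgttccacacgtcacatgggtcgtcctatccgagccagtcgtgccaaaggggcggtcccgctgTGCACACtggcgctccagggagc
Mt2 held 3 metal response matches and 1 antioxidant response match, TGACTCAGC, whose first letters are also an AP-1 site. Mt1 held 1 metal response match in its window. Of 32851 RefSeq windows of this length, 21.4% held at least 1 metal response match, 5.17% held at least 2, and 10.2% held an antioxidant response match. Starts differ between annotations: in GENCODE M21 the Mt2 transcripts begin 46 and 242 bases downstream of the RefSeq start, and the Mt1 transcripts at -7, 122 and 152 bases from it, so other upstream bases count for those starts. A match is a description of letters, not a bound site.

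The other 2 family members were read for comparison and were named after their values were seen. Mt3, best known from brain, had 1.07, 0.365 and 1.04 FPKM in CRS against 1.79, 1.13 and 1.34 FPKM in CON, with all CRS values below all CON values (log2 fold change -0.81 ± 0.53). Mt4, the metallothionein of stratified squamous epithelium, had more FPKM than Mt1 in every library, with 1609, 483 and 2584 FPKM in CRS and 663, 1305 and 1134 FPKM in CON. Its merged exons of 398 nt are shorter than those of Mt1, which limits this comparison. Its groups overlapped, and its log2 fold change of 0.34 ± 0.74 was 1.04 without CRS replicate 2. The value of 1.04 includes the high values of CRS replicates 1 and 3 for genes up to 750 nt. Mt1, Mt2, Mt3 and Mt4 all had their lowest value in CRS replicate 2. That library was the lowest for 33.0% of all genes tested. It ran low for genes up to 1500 nt, the lengths of all of these genes.

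Hmox1 encodes haem oxygenase 1, which breaks haem down to biliverdin, iron and carbon monoxide. It had 85.5, 74.8 and 53.8 FPKM in CRS against 30.0, 49.1 and 56.3 FPKM in CON. CRS replicates 1 and 2 were above all controls, and CRS replicate 3 lay below CON replicate 3. The means were 71.4 ± 16.1 FPKM in CRS and 45.1 ± 13.6 FPKM in CON (SD, n = 3 each), a log2 fold change of 0.68 ± 0.36 (95% interval -0.14 to 1.51; limma unadjusted p = 0.0931; exact permutation p = 0.2).

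The lowest Hmox1 value was in CON replicate 1, the library rich in muscle transcripts. Without it the log2 fold change was 0.41, without CRS replicate 2 it was 0.64 and without CRS replicate 1 it was 0.54. Macrophages, which handle haem, express the gene strongly; their 7 markers summed to 131, 141 and 163 FPKM in CRS and to 76.5, 202 and 137 FPKM in CON, lowest in CON replicate 1 as Hmox1 was. The part of macrophage number in the Hmox1 values was not tested.

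Iron and haem handling was described by 10 further genes, of which 4 were above 0 and 6 below (median -0.05), with 0 called. Slc40a1, the iron exporter ferroportin, had 54.8, 54.4 and 58.5 FPKM in CRS against 10.7, 45.7 and 49.6 FPKM in CON. The groups did not overlap, but the log2 fold change of 0.95 ± 0.56 was 0.23 without CON replicate 1. Tfrc, the transferrin receptor, had 8.86 and 10.8 FPKM in CRS replicates 1 and 3 against 25.8, 21.4 and 28.7 FPKM in CON (log2 fold change -0.90 ± 0.42; limma unadjusted p = 0.0606). CRS replicate 2 lay within the controls, and without it the value was -1.35.

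Gclc and Gclm encode the catalytic and the modifier subunit of glutamate-cysteine ligase, the first step of glutathione synthesis. Gclc had 10.8, 32.1 and 10.5 FPKM in CRS against 26.1, 21.4 and 17.8 FPKM in CON. CRS replicates 1 and 3 were below every control, while CRS replicate 2 was the highest of all 6 libraries, 3.01 times the mean of the other CRS libraries. The log2 fold change was -0.48 ± 0.46 (95% interval -1.53 to 0.57; limma unadjusted p = 0.325). It was -1.01 without CRS replicate 2 (limma unadjusted p = 0.00296, adjusted p = 0.195), -0.23 without CRS replicate 1 and -0.20 without CRS replicate 3. CRS replicates 1 and 3 ran low for all genes of 3000 to 6000 nt, the length class of Gclc. Their median log2 deviations were -0.37 and -0.39, against 0.20, 0.11 and 0.07 in CON, so the value of -1.01 includes that shift.

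Gclm had 6.63, 12.2 and 8.43 FPKM in CRS against 13.5, 12.6 and 9.21 FPKM in CON. CRS replicate 2 was again the highest of its group and lay among the controls. The log2 fold change was -0.40 ± 0.34 (95% interval -1.17 to 0.38; limma unadjusted p = 0.276), -0.63 without that library and -0.19 without CRS replicate 1. For all genes above 6000 nt, the length class of Gclm, median log2 deviations were -0.43 and -0.61 in CRS replicates 1 and 3. In CON they were 0.26, -0.05 and 0.13. Of the 50-base stretches of Gclm transcripts, 3.92% occurred in other genes, most of them in Ppia, the cyclophilin A gene. Ppia averaged 423 FPKM over the 6 libraries, so a part of the Gclm fragments is uncertain.

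The Gclm to Gclc ratio was 0.612, 0.381 and 0.806 in CRS and 0.516, 0.589 and 0.518 in CON, in FPKM. The spread was wider in CRS, whose values lay on either side of the controls. The mean log2 ratio differed by 0.085 between the groups.

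The Gclm upstream window is shown because it held both kinds of match. It lies at chr3:122245307-122245556 of GRCm38.p6 on the plus strand, and the capitals mark the matches.
Gclm: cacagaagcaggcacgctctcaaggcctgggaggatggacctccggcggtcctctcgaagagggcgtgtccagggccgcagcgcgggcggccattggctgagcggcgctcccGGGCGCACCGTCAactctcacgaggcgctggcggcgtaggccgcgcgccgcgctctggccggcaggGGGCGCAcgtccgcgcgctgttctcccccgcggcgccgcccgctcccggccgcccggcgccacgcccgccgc
The antioxidant response match, printed here as its reverse complement GCACCGTCA, overlaps the first of its 2 metal response matches. Among the 8 of 10 members with a RefSeq window, 10 windows in all, an antioxidant response match was found for 4 (Nfe2l2, Gclm, Mt2 and 1 of 3 starts of Txnrd1) and a metal response match for 4 (Srxn1, Gclm, Mt2 and Mt1). Counted by window, 10.2% of all RefSeq windows held the former and 21.4% the latter. The windows of Slc7a11 and Nqo1 held neither string of letters, which says nothing of elements outside 250 bases. Hmox1 and Gclc were the members without a window.

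Slc7a11 encodes xCT, the cystine importer that feeds glutathione synthesis, and in the coat it also serves the red-yellow pigment. It was the least abundant member, with 1.18, 3.68 and 1.75 FPKM in CRS against 3.24, 2.68 and 2.23 FPKM in CON. CRS replicate 2 was highest of the 6, and CRS replicates 1 and 3 were below every control. The log2 fold change was -0.43 ± 0.47 (95% interval -1.51 to 0.66; limma unadjusted p = 0.395), -0.86 without CRS replicate 2 and -0.08 without CRS replicate 1. Slc7a11 is in the length class of Gclm, in which CRS replicates 1 and 3 ran low, and the value of -0.86 includes that shift. Melanocyte markers, 6 genes, summed to 176, 206 and 199 FPKM in CRS and 261, 301 and 285 FPKM in CON, lower in every CRS library; their part in the Slc7a11 values was not tested.

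Among 18 other genes of glutathione metabolism, 8 were above 0 and 10 below, with a median of -0.08 and 0 called. Without CRS replicate 2 the median was 0.33, and without that library and CON replicate 1 it was 0.21. For all genes these medians were -0.21 and -0.20. Gsr, glutathione reductase, which returns oxidised glutathione to its reduced form, had 18.7, 24.3 and 22.3 FPKM in CRS against 40.5, 36.2 and 30.1 FPKM in CON. The groups did not overlap (log2 fold change -0.70 ± 0.29; limma unadjusted p = 0.0377). Chac1, an enzyme that degrades glutathione, had 138, 86.5 and 123 FPKM in CRS against 32.0, 69.0 and 58.4 FPKM in CON. Every CRS value was above every CON value, and the log2 fold change of 1.17 ± 0.39 (limma unadjusted p = 0.0167) was the highest of the 127 related genes tested. Summed markers of hair shaft (6 genes detected, 5387 to 9833 FPKM in CRS and 1394 to 5202 FPKM in CON) and of sebaceous cells (7 genes, 384 to 712 FPKM in CRS and 219 to 343 FPKM in CON) were also higher in every CRS library, and their part in the values of Chac1 was not tested.

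Chac1 is also a target of Atf4, the factor of the amino acid response that induces Slc7a11 as well. Of the 13 genes in that list, Chac1 was the 1 above 0 and the other 12 were below, with a median of -0.46 and 0 called. Of all genes tested, 67.8% were below 0, and their median was -0.20. The list median was -0.74 without CRS replicate 2, beside -0.21 for all genes. Without CRS replicate 1 it was -0.24, beside -0.25 for all genes. Mthfd2, a mitochondrial folate enzyme, had 4.28, 4.58 and 5.53 FPKM in CRS against 9.01, 7.96 and 8.31 FPKM in CON (log2 fold change -0.81 ± 0.29; limma unadjusted p = 0.0232), with separate groups. Cell cycle markers (6 of 6, summing to 45.9 to 86.4 FPKM in CRS and 93.8 to 123 FPKM in CON) and mitochondrially encoded genes (9 of 9, summing to 14544 to 18781 FPKM in CRS and 21583 to 112387 FPKM in CON) were also lower in the summed level of every CRS library. Their part in the values of Mthfd2, Gsr and Prdx3 was not tested.

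Srxn1 encodes sulfiredoxin, which repairs over-oxidised peroxiredoxins. It had 24.7, 30.0 and 39.5 FPKM in CRS against 15.5, 27.9 and 17.6 FPKM in CON. CRS replicates 2 and 3 were above all controls, and CRS replicate 1 lay below CON replicate 2, so the groups overlapped by that pair. The means were 31.4 ± 7.52 FPKM in CRS and 20.3 ± 6.61 FPKM in CON (SD, n = 3 each). In log2 terms the fold change was 0.64 ± 0.34 (95% interval -0.14 to 1.43; limma unadjusted p = 0.0952; exact permutation p = 0.2). It was 0.66 without CRS replicate 2, 0.80 without CRS replicate 1 and 0.47 without CON replicate 1.

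Txnrd1 encodes cytosolic thioredoxin reductase. It had 13.5, 39.2 and 14.8 FPKM in CRS against 18.6, 18.9 and 14.1 FPKM in CON. CRS replicate 2 was far above every other library, and the other CRS libraries lay within or just below the control range. The sign of its log2 fold change rested on that library: 0.22 ± 0.44 with it and -0.26 without it (limma unadjusted p = 0.621 with all 6). Without CRS replicate 1 the value was 0.50, and without CON replicate 3 it was 0.09.

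The 14 other thioredoxin and peroxiredoxin genes were 5 above 0 and 9 below, with a median of -0.14 and 0 called. Without CRS replicate 2 the median was 0.04. For all genes these medians were -0.20 and -0.21. Prdx3, the mitochondrial peroxiredoxin, had 34.2, 34.5 and 52.6 FPKM in CRS against 58.3, 59.8 and 49.3 FPKM in CON (log2 fold change -0.49 ± 0.31), and Txn2, mitochondrial thioredoxin, stood at -0.34 ± 0.32. The 4 superoxide dismutase and catalase genes ranged from -0.20 for Sod1 to -0.02 for Cat.

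Nqo1 encodes the quinone reductase that is often read as a marker of Nrf2 activity. It had 5.59, 5.66 and 5.26 FPKM in CRS against 8.65, 6.11 and 3.88 FPKM in CON. The CRS libraries were nearly level and sat inside the wider range of the controls. The log2 fold change was -0.10 ± 0.36 (95% interval -0.93 to 0.73; limma unadjusted p = 0.792), and its sign changed to give 0.17 without CON replicate 1 and 0.14 under median-ratio scaling of the libraries.

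NADPH, which Nqo1, Gsr and Txnrd1 consume, was represented by 6 genes of its supply. Of these, 5 were above 0 and 1 below, with a median of 0.18 and 0 called. The median was 0.04 without CON replicate 1, and -0.01 without that library and CRS replicate 2. For all genes the medians were -0.20 with all 6 libraries, and -0.17 and -0.20 in these fits. G6pdx, which opens the pentose phosphate pathway, had 46.6, 75.7 and 61.7 FPKM in CRS against 39.2, 54.4 and 42.5 FPKM in CON (log2 fold change 0.42 ± 0.32), and malic enzyme Me1 stood at 0.35 ± 0.31. The groups of each overlapped. With the length trend subtracted they did not, at 0.65 for G6pdx (limma unadjusted p = 0.0221) and 0.58 for Me1 (limma unadjusted p = 0.0304).

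**Figure D2:**
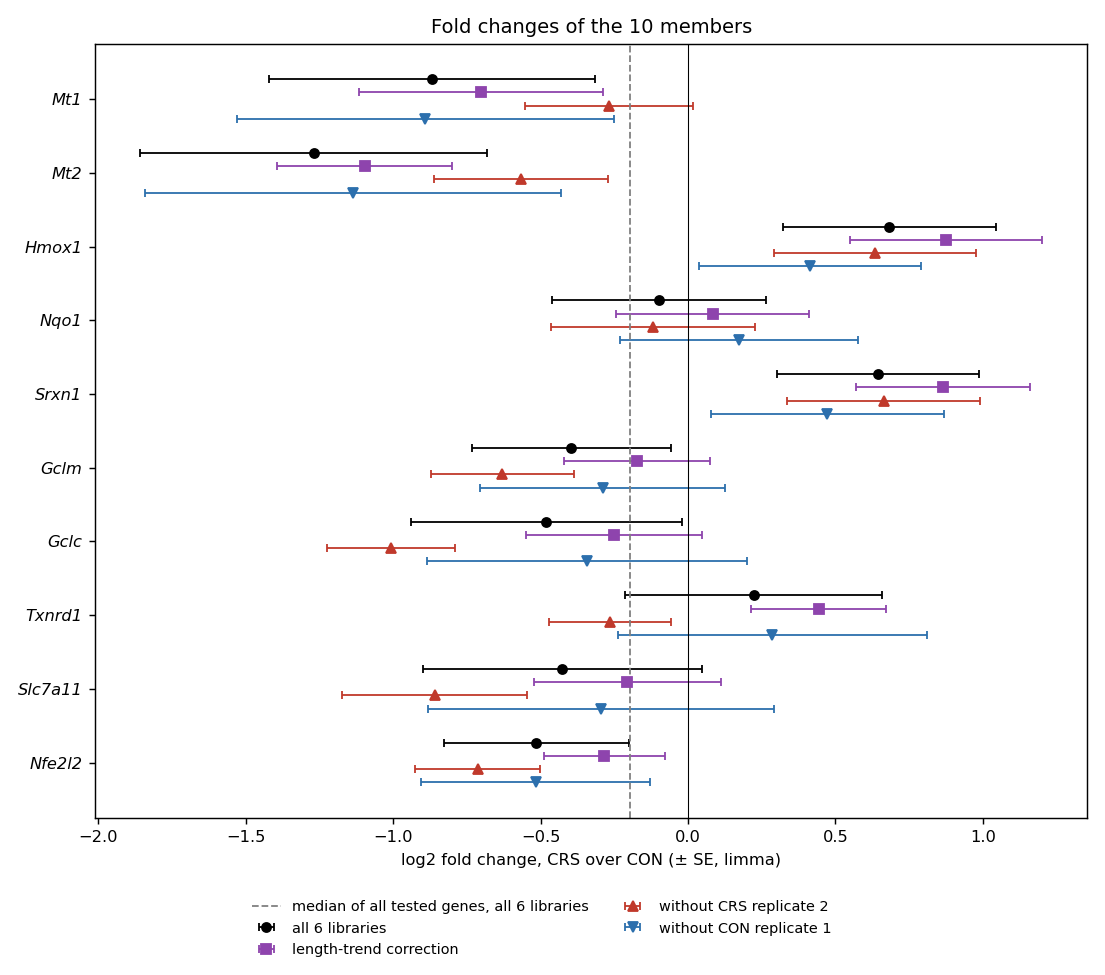
Log2 fold change of CRS over CON (± SE, limma) for the 10 genes, from all 6 libraries, after subtracting the length trend of each library, and without CRS replicate 2 or CON replicate 1. The dashed line is the median of all tested genes (-0.20). Hmox1 and Srxn1 lie above 0 and Mt1, Mt2, Gclm, Gclc, Slc7a11 and Nfe2l2 below 0 in all 4 fits, while Nqo1 and Txnrd1 change sign.

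By level, in FPKM means, the order in CRS was Mt1, Hmox1, Srxn1, Txnrd1, Gclc, Nfe2l2, Gclm, Nqo1, Mt2 and Slc7a11. In CON it was Mt1, Hmox1, Gclc, Srxn1, Nfe2l2, Txnrd1, Gclm, Mt2, Nqo1 and Slc7a11. Neighbours whose libraries did not overlap were Hmox1 and Srxn1, and Gclm and Nqo1, in CRS. In CON they were Mt1 and Hmox1, Hmox1 and Gclc, Txnrd1 and Gclm, and Nqo1 and Slc7a11. All other neighbours overlapped, and both orders share the limits of FPKM across genes of unlike length. The whole span ran from means of 219 FPKM for Mt1 to 2.20 FPKM for Slc7a11 in CRS, and from 345 to 2.72 FPKM in CON.

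The members divided by length in CRS replicate 2. Among the 10, CRS replicate 2 exceeded the mean of the other CRS libraries by 1.58 for Gclc (3766 nt), 1.46 for Txnrd1 (7086 nt), 1.30 for Slc7a11 (13922 nt), 0.70 for Gclm (6291 nt) and 0.60 for Nfe2l2 (3796 nt), on the log2 scale. It stood at 0.14 for Hmox1 (1751 nt), 0.06 for Nqo1 (1553 nt) and -0.06 for Srxn1 (2820 nt), and at -1.80 for Mt1 and -2.11 for Mt2. The 2 lowest values belong to the 2 shortest members and the 5 highest to the 5 longest, a split that crosses the functional groups: both glutathione genes and thioredoxin reductase are long, and the metallothioneins are short. The medians over all genes of at least 1 FPKM also increased with length in that library, with 0.01 from 1500 to 3000 nt and 0.43 from 3000 to 6000 nt.

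**Figure D3:**
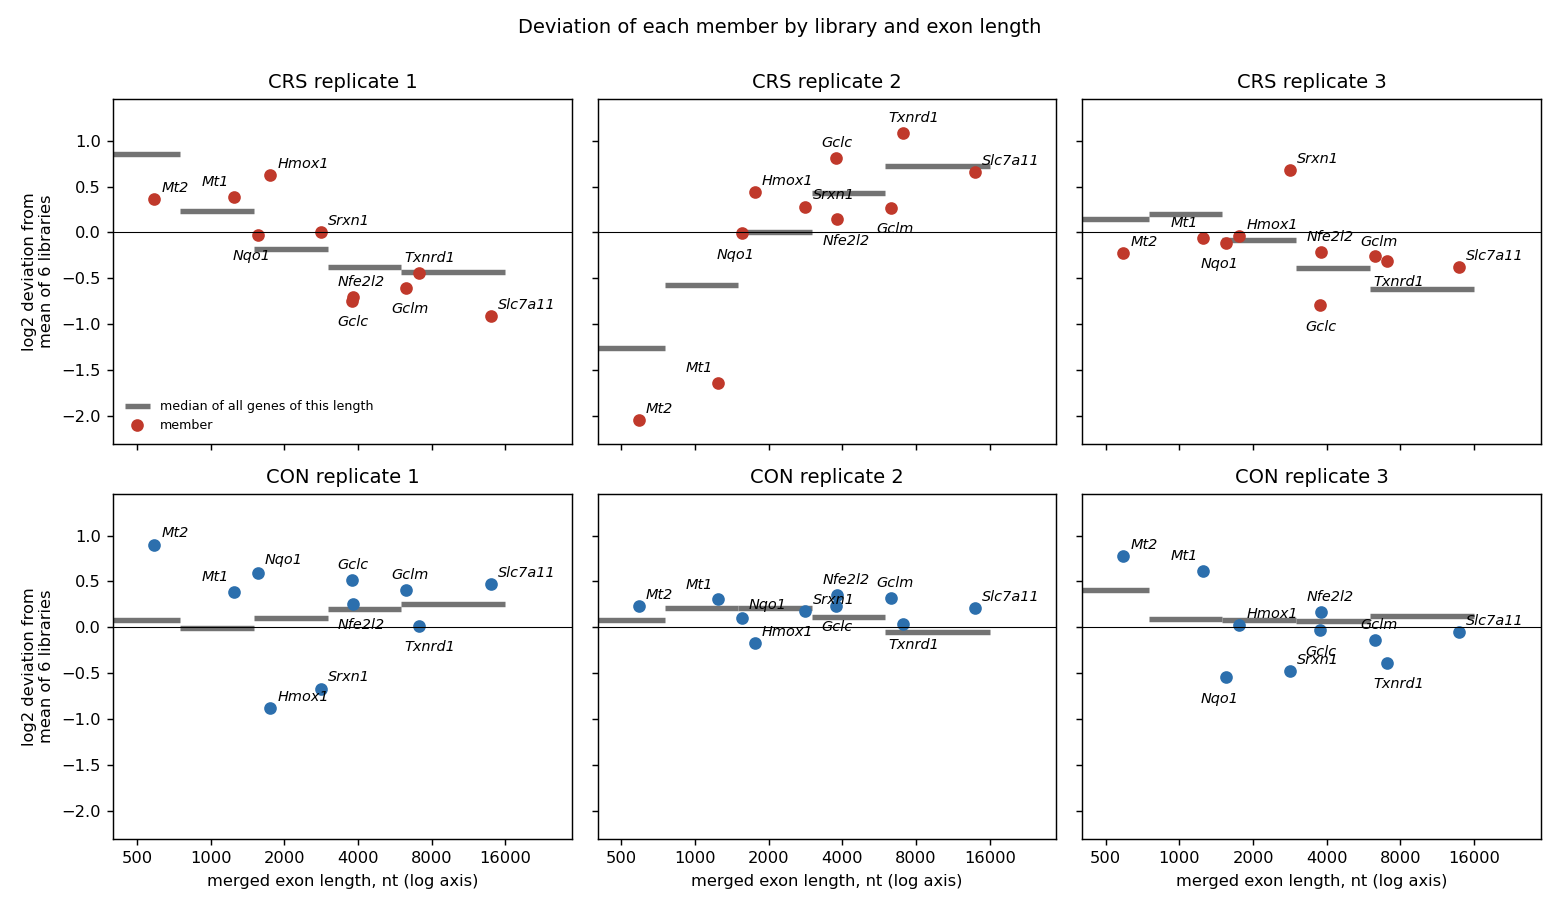
Log2 deviation of each of the 10 genes from its mean over the 6 libraries, against merged exon length (nt, log axis), 1 panel per library, CRS above and CON below. Grey bars are the medians of all genes of at least 1 FPKM in 5 length classes. In CRS replicate 2 the 2 shortest members lie below their bars, Mt1 at -1.63 against -0.57 and Mt2 at -2.04 against -1.26. The 5 longest members lie above 0 there. Of these, Gclc (0.81 against 0.43) and Txnrd1 (1.09 against 0.72) lie above their bars. Gclm (0.27 against 0.72), Slc7a11 (0.65 against 0.72) and Nfe2l2 (0.14 against 0.43) lie below theirs.

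Subtracting each library's length trend, a step chosen after the data were seen, brought CRS replicate 2 closer to the other CRS libraries for 7 of the 10 members and moved it further away for 3, Hmox1, Nqo1 and Srxn1. Its excess became 0.92 for Gclc, 0.34 for Txnrd1 and -0.04 for Slc7a11, and its shortfall became -0.62 for Mt2 and -1.14 for Mt1. The Mt1 value rests on its merged exon length of 1246 nt, which is longer than each of its annotated transcripts. After this step limma gave Mt2 a log2 fold change of -1.10 ± 0.30 (unadjusted p = 0.00700). Srxn1 stood at 0.87 ± 0.30 (limma unadjusted p = 0.0209) and Hmox1 at 0.88 ± 0.33 (limma unadjusted p = 0.0295), and the limma adjusted p was 0.9999 for all 10 genes. Mt2 was 1 of 332 genes lower at an unadjusted p under 0.05 (1.17% of 28373), and Srxn1 and Hmox1 were 2 of 756 higher (2.66%). The groups of Mt2 no longer overlapped, as in 3.36% of genes towards lower values, nor did those of Srxn1, as in 5.49% towards higher values. Mt1 stood at -0.70 ± 0.41 and Txnrd1 at 0.44 ± 0.23. The remaining 5 lay between -0.28 for Nfe2l2 and 0.08 for Nqo1, and the median of all genes was 0.02.

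Over all 11 related lists, 127 of 129 genes were tested and 0 were called. By unadjusted p under 0.05, 1 was higher in CRS (Chac1), beside 0.919% of all genes tested, and 3 were lower (Gsr, Mthfd2 and Tsc22d3), beside 1.63%. With the length trend subtracted, Chac1 stood at 1.36, Maff at 0.88, Gsr at -0.48, Mthfd2 at -0.58 (limma unadjusted p = 0.0593) and Tsc22d3 at -0.76, each with separate groups. Among other named genes of the lists, Mt3 and Slc30a5 also kept their separation. Slc40a1, Ugdh and Akr1b3 lost theirs, and Tfrc, G6pdx and Me1 gained it. After that step 5.49% of all genes were separated towards higher values and 3.36% towards lower. Without that step the groups did not overlap for 3 genes higher in CRS, beside 1.65% of all genes tested, and for 11 lower, beside 5.19%. Of the 127, 45 log2 fold changes were above 0 against 82 below, with a median of -0.14. Counts around 0 depend on how the libraries are scaled: median-ratio scaling put the median of all genes at 0.01, that of the Nrf2 partners at 0.18, that of glutathione metabolism at 0.16 and that of the Atf4 list at -0.22. The lists for metal transport and sensing (16 genes tested, median -0.16) and for glutathione S-transferases and conjugation (20 genes, 10 above 0 and 10 below, median -0.04) stood beside -0.20 for all genes. Without CRS replicate 2 their medians were -0.44 and 0.01, beside -0.21 for all genes. In the first of these the lowest p belonged to the zinc transporters Slc30a5 (-0.60 ± 0.34) and Slc39a10 (-0.71 ± 0.49), and in the other to Ugdh (-0.59 ± 0.29), which makes UDP-glucuronate, and the aldose reductase Akr1b3 (-0.56 ± 0.30).

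Glucocorticoid-inducible genes were listed because glucocorticoids induce Mt1 and Mt2. Of 12, 3 were above 0 and 9 below, with a median of -0.21 beside -0.20 for all genes. The median was -0.60 without CRS replicate 2, -0.29 without that library and CON replicate 1, and 0.02 under median-ratio scaling. For all genes these medians were -0.21, -0.20 and 0.01. Tsc22d3, the glucocorticoid-induced leucine zipper gene, had 6.80, 11.2 and 7.60 FPKM in CRS against 20.1, 17.4 and 13.2 FPKM in CON. All CRS values were below all CON values (log2 fold change -0.99 ± 0.33; limma unadjusted p = 0.0150). Cebpd, a transcription factor gene, stood at -0.86 ± 0.44.

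**Figure D4:**
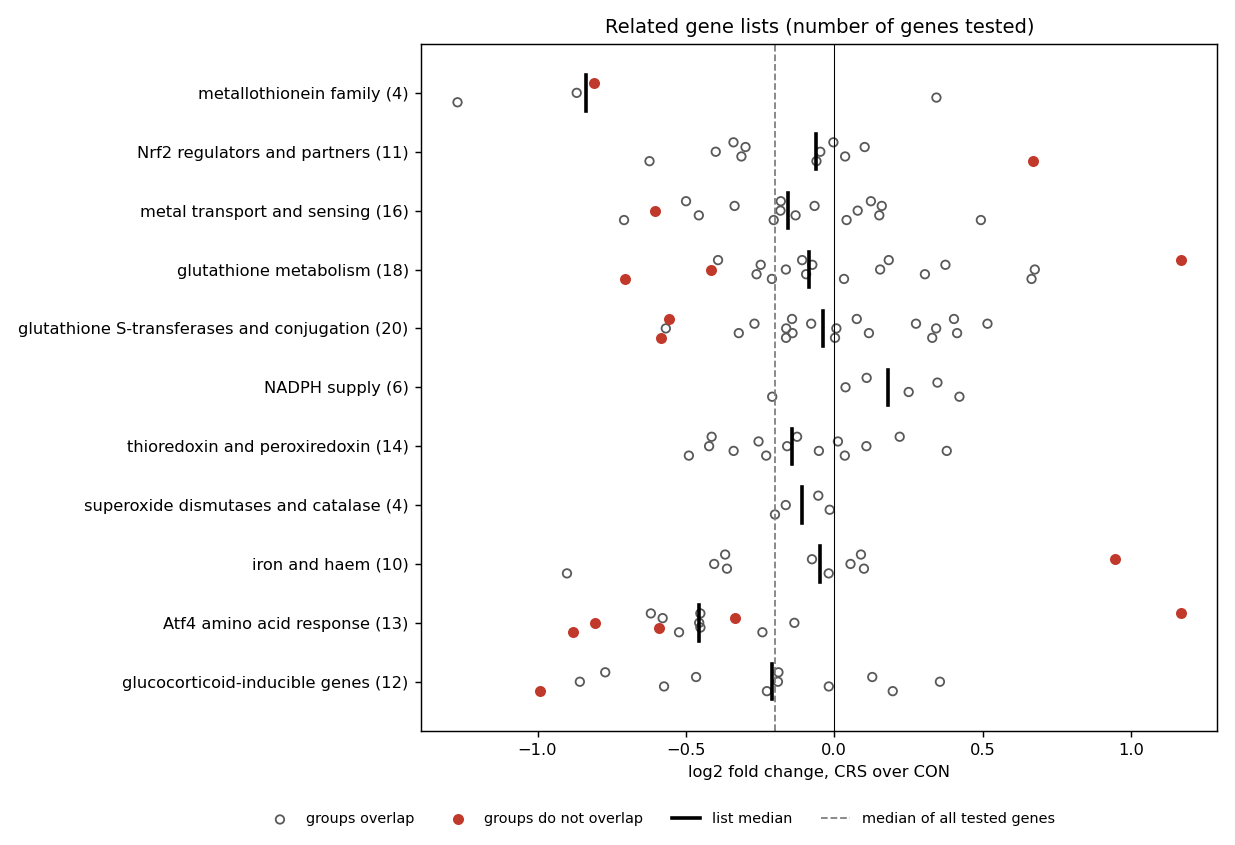
Log2 fold change of CRS over CON for each tested gene of 11 related lists; filled points are genes whose CRS and CON libraries do not overlap, black bars are list medians and the dashed line is the median of all tested genes (-0.20). Chac1, at 1.17, is the rightmost point in the glutathione and Atf4 lists.

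Likeness of profile was measured as the root-mean-square difference of centred log2 values over the 6 libraries, among 11654 genes of at least 1 FPKM. The profile nearest to Mt1 was that of Cenps (0.15), followed by Cenpm (0.18) and Cmc2 (0.18), against a median of 0.98; Mt2 ranked 55 with 0.29. For Hmox1 the nearest were Aqp9 (0.08), Mapk13 (0.09) and Dedd2 (0.11), and Srxn1 ranked 1176 with 0.47, below the median of 0.72. Castor1, Amd1 and Mtap were nearest to Nfe2l2 (0.05 to 0.06), and Gclm ranked 288. Crk, Pspc1 and Golph3l were nearest to Slc7a11 (0.06 to 0.07), with Gclc at rank 502 and Gclm at rank 754. The library-wide length trend is part of these profiles.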

How the data were processed

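Total RNA of skin was isolated with Trizol and sequenced on Illumina libraries, per the labels' protocols. The authors deposited 1 table of FPKM per library. HISAT2 and the build GRCm39 are named in the submitters' processing notes. The read counter, its annotation, strandedness and versions are not given in the sources used here. GENCODE M21 (build GRCm38) supplied symbols and exon lengths, merged over transcripts. The product of FPKM and exon length stepped in whole fragments, within 0.05 of a whole number for 98.1% to 98.3% of values up to 100 fragments, which gave depths and fragment numbers. Members rested on 21 to 7960 fragments per library.

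From the deposited FPKM, log2(FPKM + 0.1) was computed; a fold change on this scale understates that of a low gene. Genes of mean FPKM of at least 0.1 were fitted with limma 3.58.1 (R 4.3.3, mean-variance trend, Benjamini-Hochberg, threshold 0.05), CRS over CON. Exact two-sided permutation tests used 3 against 3 libraries. The length correction subtracted, per library, a lowess curve (span 0.3, genes of at least 1 FPKM) over log2 exon length. Without strand information, fragments of Txnrd1 and the opposite-strand Gm38560 (3.58 FPKM) cannot be told apart. Upstream windows came from RefSeq (GRCm38.p6). Tables and figures used Python 3.11.15, pandas 2.3.3, scipy 1.17.1 and matplotlib 3.10.9.

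The members and lists were chosen with earlier results of these data known. By the rule, the genes named were all members, the 2 of lowest unadjusted p in each list, and the 3 nearest profiles of Mt1, Hmox1, Nfe2l2 and Slc7a11. Keap1, Bach1, Mt3, Mt4 and Cat fall outside it and were chosen after their values were seen. Alternatives covered pseudocounts, filters, scalings, variance models, array weights, voom on recovered fragments, a replicate block, each library left out and, added later, the length correction. The fit was also run on simulated data with planted changes, to check the script, and no result here rests on it. With 3 libraries per group, the absence of calls does not show that changes of the members' size are absent.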

Additional observations from a re-analysis of the deposited data

How the results depend on the processing

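Across 18 alternatives, 0 genes, 0 members and 0 genes of the related lists passed the adjusted threshold under any of them; the smallest adjusted p was 0.0522, with array weights, where the unadjusted p was under 0.05 for 1109 genes with higher and 6525 with lower values in CRS. In 4 of the alternatives (the 2 filters on low values, no variance trend and the replicate block) a member's fold change cannot move; of the 140 values under the others, 132 kept their direction and 8 reversed. Nqo1 reversed with median-ratio scaling (0.14), quantile normalization (0.11), without CON replicate 1 (0.17), without CON replicate 1 and CRS replicate 2 (0.15) and with the length correction (0.084). Txnrd1 reversed with array weights (-0.17), without CRS replicate 2 (-0.26) and without both libraries (-0.20). The cause was not tested. Leaving out 1 library at a time, the log2 fold change ranged from -1.28 to -0.27 for Mt1, -1.77 to -0.57 for Mt2, 0.41 to 0.87 for Hmox1, -0.40 to 0.17 for Nqo1, -0.26 to 0.50 for Txnrd1, 0.46 to 0.89 for Srxn1, -0.63 to -0.19 for Gclm, -1.01 to -0.20 for Gclc, -0.86 to -0.08 for Slc7a11 and -0.71 to -0.29 for Nfe2l2. The Mt2 to Mt1 ratio differed by -0.43 (log2), by -0.57 to -0.28 with 1 library left out, and by -0.15 without CON replicate 1 and CRS replicate 2. Median-ratio scaling moved the median of all genes from -0.20 to 0.01. By the same unadjusted count, leaving out CRS replicate 2 gave 778 and 4098 genes, and voom on recovered fragments 218 and 338, against 261 and 462 in the reported fit. The groups share replicate numbers. Deviations from the group means correlated at -0.12, 0.06 and 0.09 over genes for libraries of the same number. For unlike numbers they reached 0.30 (CRS replicate 1 with CON replicate 3) and -0.29 (CRS replicate 2 with CON replicate 3). Length dependence and tissue makeup enter these deviations, so they cannot decide whether libraries of the same number shared a batch. The replicate block by construction leaves fold changes as they are. With it 0 genes were called, as without it, and the unadjusted limma p of Mt2 was 0.0294 instead of 0.0615. Fragment number limits Mt2 most, at 21 in CRS replicate 2, although that library was the deepest with 25.7 M fragments.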
